A study of Mus musculus with 16 samples.

Results

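The 41 genes described here encode the enzymes, carriers and assembly proteins of mitochondrial and peroxisomal fatty acid oxidation in mouse liver. They were taken by symbol from a given list, and each was found among the 27288 genes of the table. By the main site of their products, 18 were counted as mitochondrial, 15 as peroxisomal, 4 as acting in both organelles (Acad11, Crat, Eci2 and Ech1) and 4 as long-chain acyl-CoA synthetases (Acsl1, Acsl3, Acsl4 and Acsl5). Expression was measured by RNA sequencing in 16 liver samples of C57BL/6 mice aged 8 to 10 weeks, in 4 groups of 4 libraries. The groups were wild type on the control treatment, called control diet below, wild type after ethanol, knockout on the control treatment and knockout after ethanol. Knockout mice carried a deletion of DRP1 labelled as restricted to the liver, wild-type mice were their paired controls, and ethanol was given by the Gao-Binge model, which joins a period of ethanol diet to a final single dose. The labels do not say what drives the deletion or whether each library came from its own mouse. A p-value here sets a difference between groups against the spread among these libraries, which may not be a spread between mice.

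Fatty acids are activated to acyl-CoA by synthetases and enter mitochondria as carnitine esters. There, chain-length-specific dehydrogenases, a hydratase, another dehydrogenase and a thiolase shorten them in repeated rounds, with electrons leaving through the electron transfer flavoprotein. Peroxisomes take up very-long-chain, branched and dicarboxylic fatty acids and bile acid precursors, shorten them with oxidases that make hydrogen peroxide, and export the products as carnitine esters or free acids. In hepatocytes both routes are well-known targets of the nuclear receptor PPARA, and DRP1, encoded by Dnm1l, divides both organelles.

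Values are read counts divided by 1 size factor per library, called normalised reads, and each library held between 11425136 and 13864862 reads. All 41 members passed the minimum of a mean of 10 normalised reads over the 16 libraries, as did 13256 genes in all. Dnm1l was read at 663 ± 56.1 normalised reads in wild type on control diet and 642 ± 72.7 in the knockout (SD, n = 4 each), and at 743 ± 38.4 and 803 ± 99.3 after ethanol. Its gene total did not separate the genotypes (limma adjusted p = 0.825 on control diet and 0.590 on ethanol), so knockout below means the libraries labelled knockout. The sum of 8 hepatocyte markers made up 11.6 to 12.4% of all normalised reads in wild type and 9.90 to 10.8% in the knockout on control diet, and 10.6 to 12.2% and 9.67 to 12.1% after ethanol; none of the 8 was at 0. In whole liver, fewer cells of a type and less RNA per cell cannot be told apart. Among the knockout ethanol libraries, library 1 held 7350 normalised reads of 5 pancreas markers, against at most 11.4 in the other libraries, and library 4 held 6158 of 5 blood markers, against at most 2969 elsewhere; the calls on that group are therefore also given without both.

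The members spanned a wide range of levels, compared between genes as normalised reads per kilobase of exon. Exon length was the union over all annotated transcripts of a gene, 1516 bases for Acaa2 and 8730 for Hadha. The order of the members therefore depends in part on the annotation. Scp2, which encodes a peroxisomal thiolase and sterol carrier protein, had the highest level, at 10424 ± 386 per kilobase in wild type on control diet (SD, n = 4). Acaa2, the mitochondrial thiolase of long and medium chains, followed at 9042 ± 1025. Their order was not the same in every group, with Scp2 at 6355 ± 628 and Acaa2 at 6980.4 ± 729.8 in wild type after ethanol. Acaa1b, a peroxisomal thiolase, came next at 4209.8 ± 874, and Etfa, a subunit of the electron transfer flavoprotein, followed at 2563 ± 209. At the low end stood Acot8, a peroxisomal thioesterase, at 72.0 ± 14.9, Pex14, a docking protein for peroxisomal import, at 72.8 ± 3.26, and Hadhb at 80.3 ± 6.52. Hadhb encodes the thiolase subunit of the mitochondrial trifunctional protein and its partner Hadha the hydratase and dehydrogenase subunit; Hadha stood at 695 ± 38.6.

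Some of these levels share sequence with other genes. Of all stretches of 75 bases, the read length, in the exons of Hadhb, 16.7% also occur in other genes, chiefly the predicted gene Gm13910, which itself held 367 to 416 normalised reads in wild type on control diet. For Scp2 the share was 25.6%, chiefly with its pseudogene Scp2-ps2, read at 2744 to 3106; for Etfb it was 39.6%, for Acaa1b 32.3%, part of it with Acaa1a, for Pex14 23.5% and for Acadvl 19.5%. The values of these 6 genes are uncertain, and the shares do not bound by how much. They count distinct stretches over all annotated transcripts of a gene, and not reads. Because a strand setting is not given, reads of overlapping genes on the other strand cannot be told apart. Acaa1a shared 12.6%, and each of the other members less than that.

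**Figure D1:**
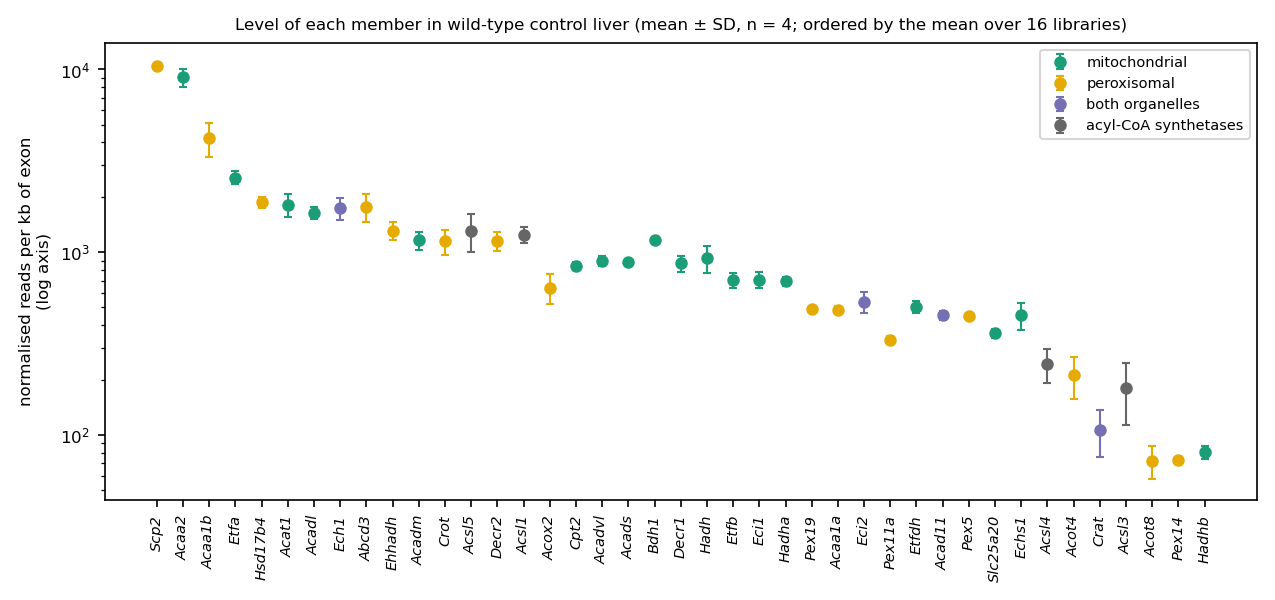
Normalised reads per kilobase of exon for each of the 41 members in wild type on control diet, as the mean ± SD of 4 libraries on a log axis, ordered by the mean over all 16 libraries and coloured by organelle. Scp2 and Acaa2 lead, and Acot8, Pex14 and Hadhb stand lowest.

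Promoters were searched for the direct repeat that PPARA and its partner RXR bind, AGGTCANAGGTCA, a pair of AGGTCA motifs spaced by 1 base, on both strands. The RefSeq promoter table of build GRCm38.p6, which runs from 250 bases before to 50 after each gene's start, held 35 of the 41 members. No member promoter held the repeat exactly or with 1 mismatch, against 0.0481% and 0.644% of all 27025 genes. At shares this low, finding none among 35 members says little, and sequence outside the window was not searched. With up to 2 mismatches, 5 of the 35 members (14.3%) held the repeat, against 4.4% of all genes, and with up to 3, 31.4% against 27.3%. The 5 matched stretches are shown because they span both organelles, with bases equal to the repeat in capitals and each read along the strand on which it matched.
Acox2: AGGaCAgAGGTgA
Slc25a20: AGGTgAaAGGTCg
Acot4: cGGcCAaAGGTCA
Etfa: AGGgCAaAGGTaA
Echs1: AGGTCAcgGGTCc

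Acox2 and Slc25a20 are the members of these 5 that were called changed by ethanol in one of the genotypes, so 280 bases of each promoter, on the gene's strand, are printed with the matched stretch in capitals. That of Acox2 (chr14:8258810-8259089, minus strand) holds the stretch starting 9 bases after the RefSeq start, and that of Slc25a20 (chr9:108661886-108662165, plus strand) 6 bases after it. A match is a description of the letters and not of binding.
Acox2 promoter: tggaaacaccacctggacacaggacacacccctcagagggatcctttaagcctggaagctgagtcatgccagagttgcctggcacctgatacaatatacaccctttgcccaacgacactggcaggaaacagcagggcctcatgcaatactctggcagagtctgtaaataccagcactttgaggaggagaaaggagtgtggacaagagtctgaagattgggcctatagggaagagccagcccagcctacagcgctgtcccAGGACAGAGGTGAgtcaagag
Slc25a20 promoter: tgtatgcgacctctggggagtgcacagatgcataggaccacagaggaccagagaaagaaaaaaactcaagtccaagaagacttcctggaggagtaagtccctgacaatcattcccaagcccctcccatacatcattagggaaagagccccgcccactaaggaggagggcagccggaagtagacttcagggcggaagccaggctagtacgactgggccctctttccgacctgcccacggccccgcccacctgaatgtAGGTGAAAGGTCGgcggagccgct

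Ethanol in wild type changed 13 of the 41 members (31.7%), 10 lower and 3 higher, at a limma adjusted p under 0.05. Over all genes 38.0% were called, 19.0% lower and 18.9% higher, so the members' share was near the background. At an unadjusted p under 0.05 stood 20 members, against 46.7% of all genes, and the groups did not overlap for 13 lower and 3 higher members, against 17.4% and 17.7% of all genes. The median log2 fold change was -0.21 over the members and -0.01 over all genes, with 30 of 41 estimates below 0. By class, 4 of 18 mitochondrial members fell and none rose, 5 of 15 peroxisomal members fell and 2 rose, 1 of the 4 in both organelles rose, and 1 of the 4 synthetases fell. Fold changes are on the scale of log2(value + 1), and called or not called refers to limma unless another tool is named. DESeq2 called 16 members here, these 13 and Ech1, Etfa and Hadha, all 3 lower, where it called 5150 of the 13256 genes. Beside these counts, 9 of 10 macrophage markers fell, their sum being 3016 to 6793 in the control libraries and 1134 to 1669 after ethanol, and 3 of 8 hepatocyte markers rose. Of 6 endothelial markers 2 rose, and of 6 stellate markers 2 rose and 1 fell. Among 5 bile duct cell markers 1 rose, among 5 blood markers 1 fell, and the 1 lymphocyte marker tested fell. The endothelial sum was 1112 to 1478 on control diet and 1827 to 2104 after ethanol, and the stellate sum 2428 to 3041 and 3320 to 3685, neither with overlap; the part of these markers in the member results was not tested.

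Peroxisomal thiolases and carriers were among the largest falls with ethanol in wild type. Positions are on GRCm38 with GENCODE annotation. Scp2 (ENSMUSG00000028603, chromosome 4, 108043839 to 108144998, minus strand) was read at 35934, 37086, 34505 and 37497 normalised reads on control diet and at 22298, 23152, 23972 and 18992 after ethanol. Every ethanol library was below every control library, and expression was 0.608-fold that of control (95% interval 0.494 to 0.748; log2 -0.72 ± 0.14 SE, limma adjusted p = 0.000892). Scp2-ps2, the pseudogene that shares sequence with it, was read at 2878 ± 162 and 2301 ± 241 (SD, n = 4 each). Acaa1b (ENSMUSG00000010651, chromosome 9, 119148023 to 119157093, minus strand) went from 9084, 5718, 9442 and 8795 to 4296, 3373, 3637 and 2939. It fell to 0.435-fold (0.283 to 0.670, adjusted p = 0.00425) with no overlap between groups, although control library 2 stood well below the other 3. Abcd3 (ENSMUSG00000028127, chromosome 3, 121758774 to 121815302, minus strand), a transporter that brings acyl-CoA into peroxisomes, was at 10054, 10312, 14347 and 11995 on control diet and 7347, 7863, 7308 and 6717 after ethanol. All 4 ethanol libraries were lower, at 0.631-fold (adjusted p = 0.00122).

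Pex5 (ENSMUSG00000005069, chromosome 6, 124396816 to 124415067, minus strand), the receptor that carries enzymes into peroxisomes, was read at 1794, 1783, 1797 and 1685 on control diet and 1108, 1215, 1423 and 1043 after ethanol in wild type. The control libraries lay close together and all ethanol libraries lay below them, at 0.674-fold (limma adjusted p = 0.000718). Pex14 stood at 457 ± 20.4 and 489 ± 28.9 (SD, n = 4) and Pex19, a chaperone for peroxisomal membrane proteins, at 1855 ± 57.0 and 1915 ± 135, neither called. Pex11a (ENSMUSG00000030545, chromosome 7, 79735957 to 79743131, minus strand), which promotes peroxisome division, rose from 1120.1, 1027, 1007 and 1076 to 1301, 1809.5, 1567 and 1246, 1.39-fold (adjusted p = 0.0164), with no overlap. Leaving out wild-type ethanol library 2 (adjusted p = 0.0634) ended that call, as did keeping only ethanol libraries 3 and 4 (adjusted p = 0.114).

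Acox2 and Ehhadh, enzymes of the peroxisomal cycle itself, moved in opposite directions in wild type. Acox2 (ENSMUSG00000021751, chromosome 14, 8225511 to 8259353, minus strand), the oxidase of branched-chain and bile acid precursors, was read at 2516, 1699.9, 2592 and 2661 on control diet and at 4008, 4048, 4376 and 4172 after ethanol. Every ethanol library was above every control library, and Acox2 rose 1.78-fold (1.44 to 2.20, limma adjusted p = 0.000344). Ehhadh (ENSMUSG00000022853, chromosome 16, 21761287 to 21787807, minus strand), the bifunctional hydratase and dehydrogenase, went from 3986, 4527, 3654 and 3496 to 2946, 3005, 2923 and 3157, 0.772-fold (adjusted p = 0.0321). Its groups did not overlap, but leaving out any 1 of wild-type control libraries 1 and 2 and wild-type ethanol libraries 1, 2 and 3 (adjusted p from 0.0586 to 0.103) ended the call. Hsd17b4, the other bifunctional enzyme, was not called, at 6373 ± 464 and 6059.6 ± 441 (SD, n = 4), nor was the thiolase Acaa1a, at 2138 ± 94.2 and 1918 ± 214. Acot4, a thioesterase that acts on succinyl-CoA and dicarboxylic acyl-CoA, ranged from 722 to 1888 among the ethanol libraries, and Crot, which makes carnitine esters for export, from 3923 to 5483 against 4907 to 7239 on control diet; neither was called.

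Among mitochondrial members in wild type, Bdh1 had the largest estimate. Bdh1 (ENSMUSG00000046598, chromosome 16, 31422280 to 31458901, plus strand), which interconverts the ketone bodies acetoacetate and 3-hydroxybutyrate, was read at 4537, 4455, 4410.1 and 4754 normalised reads on control diet and 2061, 1495, 2049 and 2899.8 after ethanol. It fell to 0.456-fold (0.357 to 0.583, limma adjusted p = 8.52e-05) with a wide gap between the groups. Hadhb (ENSMUSG00000059447, chromosome 5, 30155248 to 30184593, plus strand) went from 504, 482, 564 and 568 to 423, 423, 413 and 382, all ethanol libraries being lower, at 0.777-fold (adjusted p = 0.00590). Its partner Hadha also had no overlap, 5588, 6097, 6211 and 6365 against 5214, 5092, 5265 and 5376, at 0.864-fold, but was not called (adjusted p = 0.0841). Decr1, which reduces double bonds of unsaturated chains, was read at 3072 to 3734 on control diet and 2488 to 2728 after ethanol and fell to 0.778-fold (adjusted p = 0.0239). Acaa2, at 11904 to 15242 and 9609 to 12043 with overlapping groups, fell to 0.773-fold (adjusted p = 0.0308). Decr1 was no longer called after leaving out any 1 of wild-type control libraries 3 and 4 and wild-type ethanol library 3 (adjusted p from 0.0510 to 0.0763), nor Acaa2 after leaving out any 1 of wild-type control libraries 3 and 4 and wild-type ethanol libraries 2, 3 and 4 (adjusted p from 0.0509 to 0.0936).

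No acyl-CoA dehydrogenase among the members was called in wild type. Acadl (long chain) had a fold change of 1.13, Acadm (medium chain) 1.10, Acadvl (very long chain) 0.912 and Acads (short chain) 0.844. The electron carriers Etfa, Etfb and Etfdh were at 0.807, 0.946 and 0.930, not called with limma. Hadh, the short-chain hydroxyacyl-CoA dehydrogenase, was at 0.806, the hydratase Echs1 at 0.852, the isomerase Eci1 at 0.862 and Acat1, the acetoacetyl-CoA thiolase, at 0.955, none called. Ech1, Eci2 and Acad11, which act in both organelles, were at 0.801, 0.887 and 0.996, and the peroxisomal Decr2 and Acot8 at 0.998 and 1.24, not called with limma. Of the carnitine shuttle, Cpt2 and Slc25a20, the inner-membrane transferase and carrier, were at 1.16 and 1.14 without being called. Crat, the short-chain carnitine acetyltransferase of both organelles, rose 1.53-fold, from 457, 573, 803 and 459.8 to 642, 1008, 1053 and 789 (limma adjusted p = 0.0416). The Crat groups overlapped through control library 3, and leaving out any 1 of wild-type control libraries 1, 2 and 4 and wild-type ethanol libraries 2, 3 and 4 (adjusted p from 0.0527 to 0.116) ended the call.

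Of the synthetases, which activate long-chain fatty acids, Acsl3 was called in wild type. It was read at 587, 735, 1224 and 612 on control diet and 447, 376, 387 and 603 after ethanol, 0.591-fold (limma adjusted p = 0.0111). Ethanol library 4 lay just above the lowest control library, and the call was lost with only ethanol libraries 3 and 4 of each genotype (adjusted p = 0.116). Acsl1, the main hepatic synthetase, and Acsl5 were not called (adjusted p = 0.0790 and 0.0896), with fold changes of 0.736 and 0.767, and Acsl4, which prefers arachidonic acid, stood at 1.35.

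**Figure D2:**
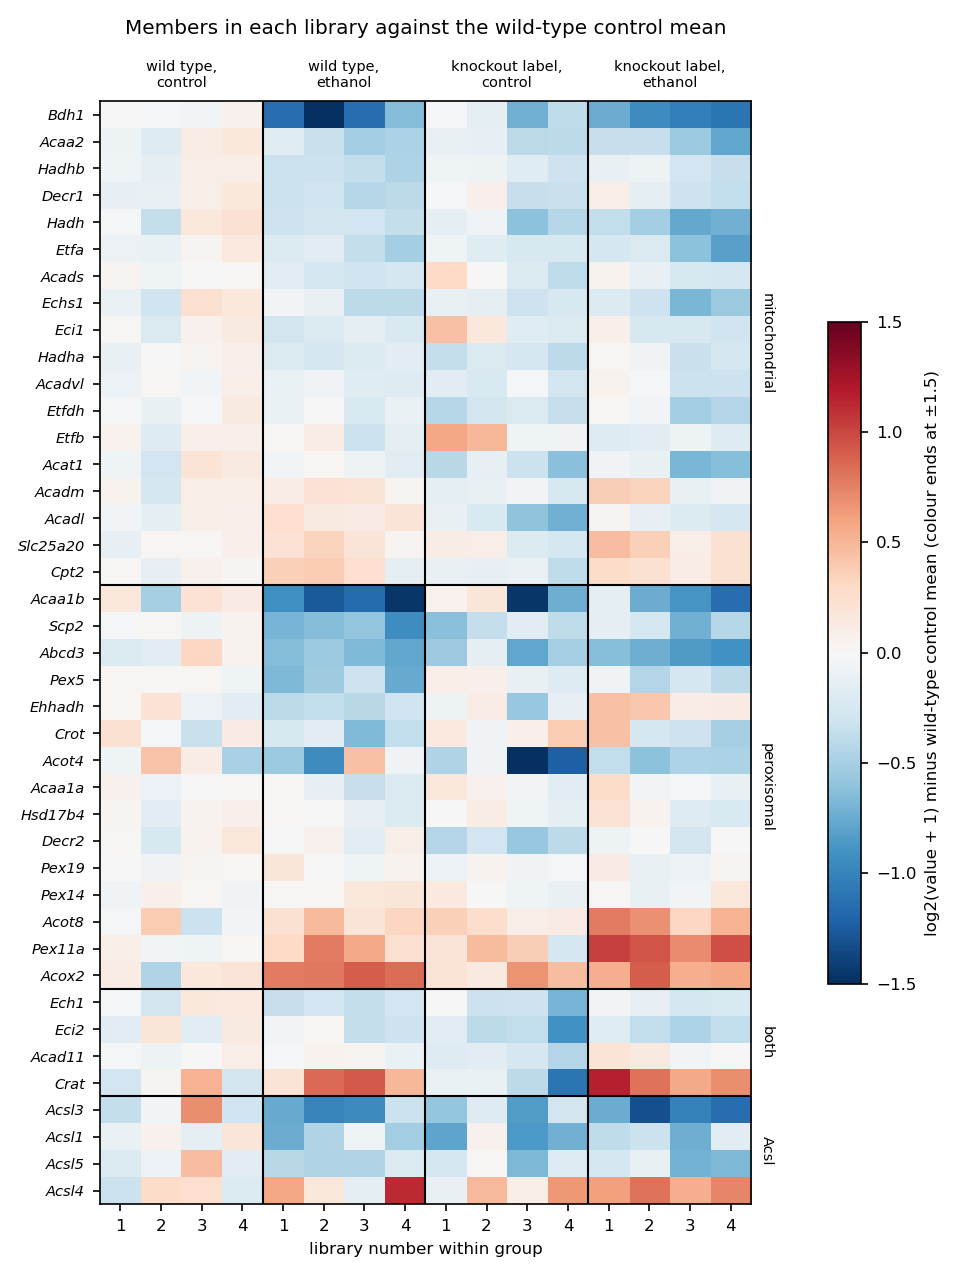
Difference of each library from the mean of the wild-type control group on the log2 scale, for the 41 members (rows) in the 16 libraries (columns), grouped by organelle and by group. Bdh1, Scp2, Abcd3 and Acaa1b are lower in all 4 wild-type ethanol libraries, and Acox2 is higher in them.

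Ethanol in the knockout changed 8 of 41 members (19.5%), 7 higher and 1 lower, where 19.2% of all genes were called, 10.2% higher and 9.01% lower. At an unadjusted p under 0.05 stood 16 members, against 34.1% of all genes, and the groups did not overlap for 6 higher and 2 lower members, against 11.7% and 11.3%. The median log2 fold change was 0.02 over the members and -0.01 over all genes. By class, 2 mitochondrial members rose and 1 fell, 3 peroxisomal members rose, 2 of the 4 in both organelles rose, and no synthetase was called with limma. DESeq2 called 10 members, these 8 and Acsl3 and Etfb, both lower, where it called 3028 of the 13256 genes. Beside these counts, 1 of 8 hepatocyte markers was called higher and 1 of 10 macrophage markers lower, and 2 of 6 endothelial and 2 of 6 stellate markers higher. The endothelial sum was 1072 to 1567 on control diet and 1605 to 1992 after ethanol, without overlap, and the stellate sum 2306 to 3403 and 3172 to 3757, with overlap; the part of these markers was not tested. Of the 8 calls, that of Crat also held with knockout ethanol libraries 1 and 4 left out (adjusted p = 0.032), and the other 7 were lost there, at a group size of 2.

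Crat was the member with the largest estimate in the knockout. It was read at 521, 521, 424 and 261 normalised reads on control diet and 1251, 978, 829 and 903 after ethanol (ENSMUSG00000026853, chromosome 2, 30400471 to 30415813, minus strand). Every ethanol library was above every control library, and Crat rose 2.35-fold (1.68 to 3.28, limma adjusted p = 0.00160). Cpt2 and Slc25a20 rose as well. Cpt2 (ENSMUSG00000028607, chromosome 4, 107903981 to 107923610, minus strand) went from 1865, 1846, 1879 and 1544 to 2443, 2362, 2171 and 2367, 1.31-fold (adjusted p = 0.0182), without overlap. Slc25a20 (ENSMUSG00000032602, chromosome 9, 108662088 to 108684641, plus strand) went from 1875, 1867, 1515 and 1451 to 2402, 2237, 1859 and 2042, 1.28-fold (adjusted p = 0.0307), with ethanol library 3 just under control libraries 1 and 2. Cpt2 lost its call without knockout control library 4 (adjusted p = 0.0567), and Slc25a20 without any 1 of knockout control libraries 3 and 4 and knockout ethanol libraries 1, 2 and 4 (adjusted p from 0.0503 to 0.0910). Crot, the peroxisomal counterpart, was not called, at 6835 ± 876 and 5736 ± 1791 (SD, n = 4).

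Peroxisomal members that rose in the knockout were Pex11a, Ehhadh and Decr2. Pex11a was read at 1213, 1474, 1366 and 891 on control diet and 2151, 2033, 1729 and 2069 after ethanol, 1.64-fold (limma adjusted p = 0.00287), with all ethanol libraries above. Without knockout ethanol libraries 1 and 4 its adjusted p was 0.0529. Ehhadh went from 3683, 4193, 2628 and 3569 to 5304, 5139.9, 4225 and 4231, 1.35-fold (adjusted p = 0.0267), the lowest ethanol library lying just above the highest control library. Decr2, the peroxisomal reductase of unsaturated chains, went from 2247, 2503, 2058 and 2316 to 2901, 3056, 2523 and 3065, 1.26-fold (adjusted p = 0.0299). Ehhadh lost its call without any 1 of knockout control library 3 and knockout ethanol libraries 1 and 2 (adjusted p from 0.0660 to 0.0791), and Decr2 without any 1 of knockout control libraries 1 and 3 and knockout ethanol libraries 1, 2 and 4 (adjusted p from 0.0588 to 0.0825). Acad11, an acyl-CoA dehydrogenase that also acts on 4-hydroxy fatty acids, rose 1.27-fold, from 3874, 3923, 3697 and 3248 to 5095, 4851, 4282 and 4418 (adjusted p = 0.0141), with no overlap.

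Bdh1 was the member that fell in the knockout. It was read at 4478, 4103, 2763 and 3484 on control diet and 2699, 2352, 2210.1 and 2114 after ethanol, 0.640-fold (0.500 to 0.819, limma adjusted p = 0.0133), with the ethanol libraries all lower. Control library 3 lay close to the highest of them, and with only ethanol libraries 1 and 2 the adjusted p was 0.0543. Scp2 was read at 23520.3, 28319, 32513 and 27744 on control diet and 33134, 30082, 22044 and 26986 after ethanol, 0.997-fold (0.810 to 1.23, adjusted p = 0.987), with the groups mixed. Pex5, Abcd3 and Acaa1b had fold changes of 0.841, 0.816 and 0.847 in the knockout, and Acox2 one of 1.21; none was called. The dehydrogenases Acadl, Acadm, Acadvl and Acads stood at 1.22, 1.20, 1.01 and 0.955, and Hadha and Hadhb at 1.11 and 0.971, none called. Etfb, at 987 ± 233 and 733 ± 27.4 (SD, n = 4), was not called with limma (adjusted p = 0.0547) and was called lower with edgeR and DESeq2, and Acsl3 was called lower with DESeq2 alone. The 4 synthetases ranged from 0.666-fold for Acsl3 to 1.31-fold for Acsl4.

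**Figure D3:**
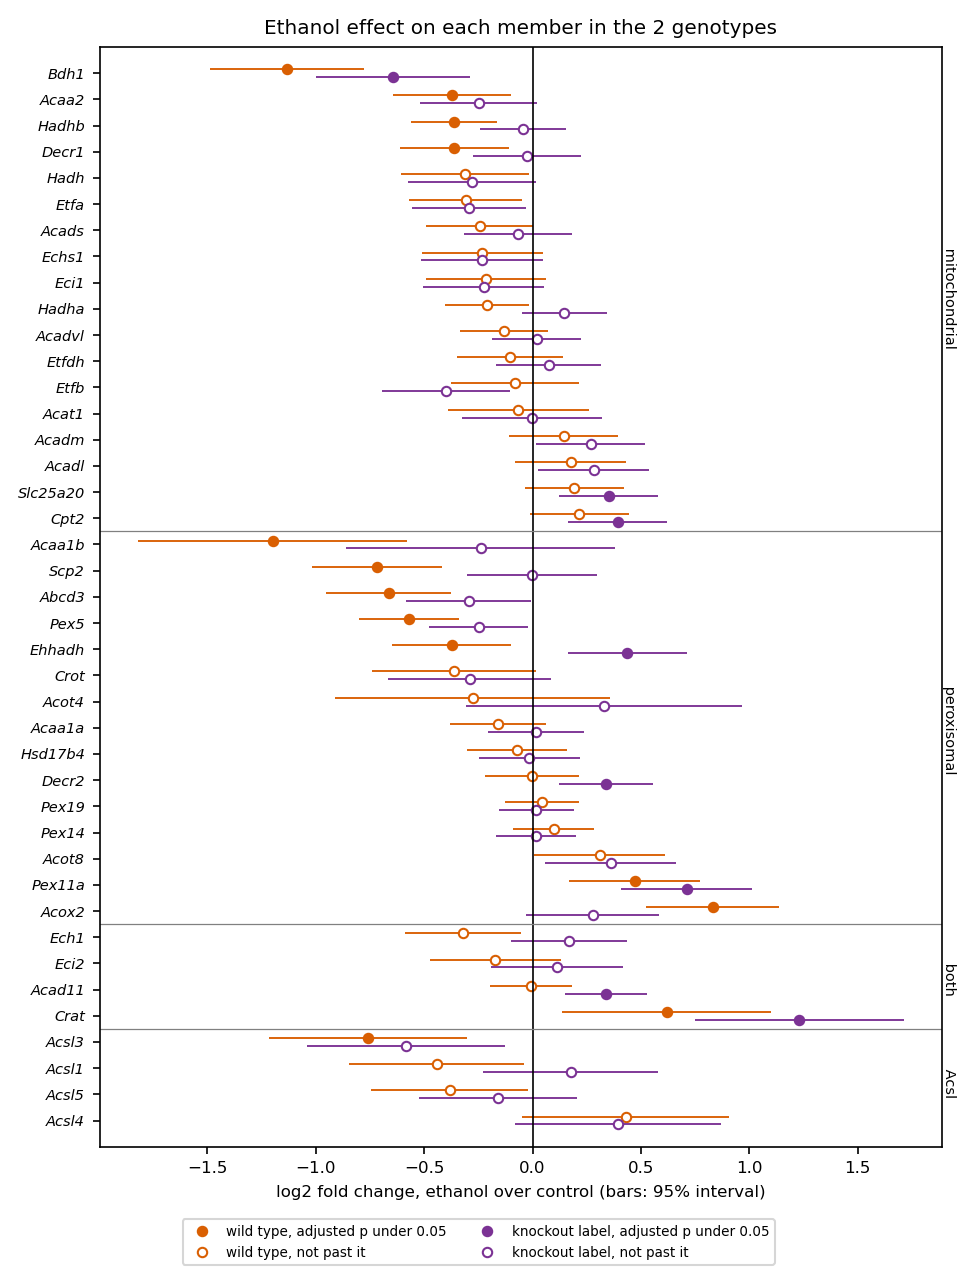
Log2 fold change of ethanol over control for each member in wild type and in the knockout, with 95% intervals from limma; filled points have an adjusted p under 0.05. Bdh1 is left of 0 in both genotypes, Crat and Pex11a right of 0 in both, and Ehhadh left in wild type and right in the knockout.

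The difference of the ethanol effects, knockout minus wild type, was tested directly. No member passed the adjusted threshold with limma or with edgeR, against 0.347% of all genes with limma; 10 members had an unadjusted p under 0.05 with limma and 9 with edgeR, where 13.4% of all genes did with limma. DESeq2 called 2, Ehhadh and Scp2, where it called 270 of the 13256 genes. The estimate was above 0 for 34 of 41 members (82.9%) and for 49.8% of all genes, and the median log2 difference was 0.18 against -0.00. All 5 comparisons draw on the same 4 groups, so a shift in 1 group enters several of them.

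Ehhadh had the smallest p of the members for this difference. Its log2 difference was 0.81 ± 0.18 (SE; 95% interval 0.42 to 1.20, limma adjusted p = 0.0725), from a fall in wild type and a rise in the knockout. Scp2 followed at 0.71 ± 0.20 (adjusted p = 0.126). Acaa1b had the largest estimate, 0.96 ± 0.42, with an adjusted p of 0.331. Acox2 had the lowest, -0.55 ± 0.21 (adjusted p = 0.256), its rise being 1.78-fold in wild type and its estimate 1.21-fold in the knockout. For Bdh1, called lower in both genotypes, the difference was 0.49 ± 0.24 (adjusted p = 0.389). For Crat, called higher in both, it was 0.61 ± 0.32 (adjusted p = 0.429), and for Pex11a 0.24 ± 0.20 (adjusted p = 0.641).

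**Figure D4:**
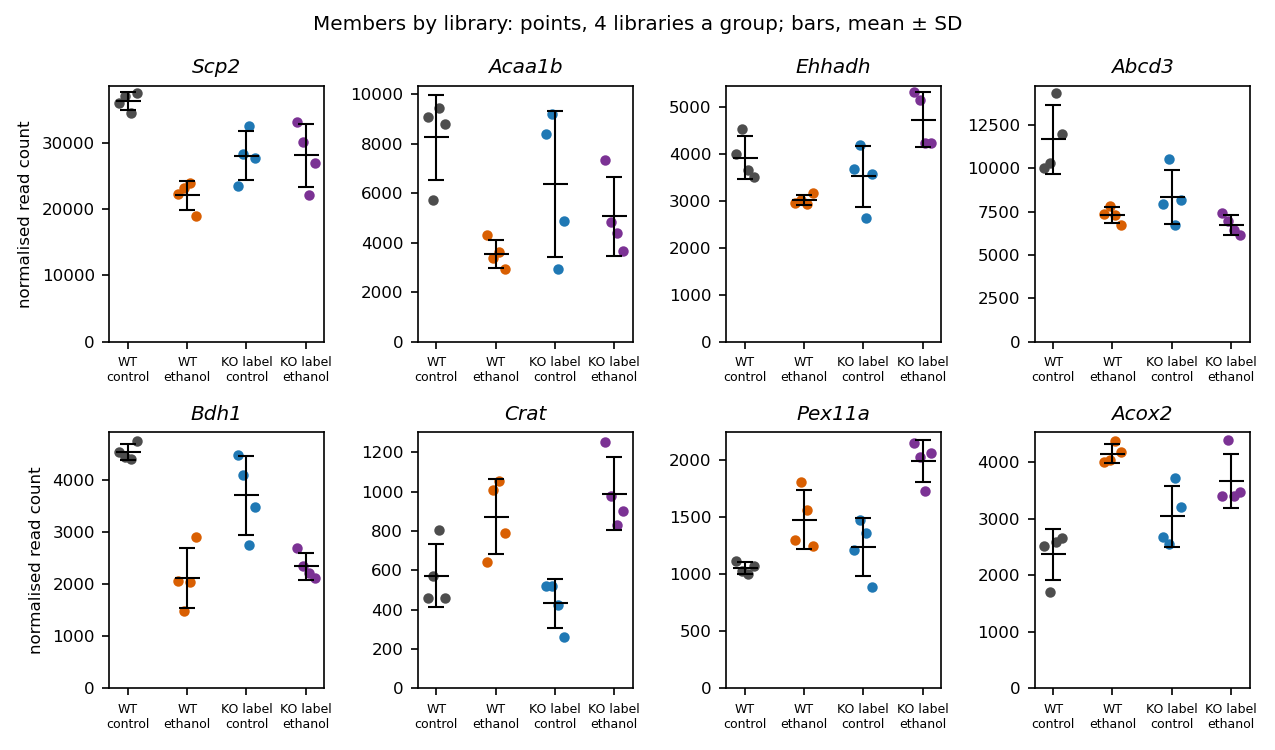
Normalised reads of selected members in each library by group, as points, with bars for the mean ± SD of 4 libraries; each panel has its own axis from 0. Scp2 is lower in wild-type ethanol libraries than in all wild-type controls, and the mean of Ehhadh is highest in the knockout ethanol group.

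On control diet, 5 of 41 members (12.2%) were lower in the knockout and none was higher; over all genes 11.6% were called, 5.24% lower and 6.40% higher. At an unadjusted p under 0.05 stood 15 members, against 26.1% of all genes, and the groups did not overlap for 5 members, all lower, against 8.72% lower and 8.68% higher over all genes. The median log2 fold change was -0.18, and 33 of 41 estimates were below 0, against 51.2% of all genes. Decr2 (ENSMUSG00000036775, chromosome 17, 26081208 to 26090337, minus strand) was read at 3093, 2579.7, 3153 and 3432 normalised reads in wild type and 2247, 2503, 2058 and 2316 in the knockout, 0.747-fold (limma adjusted p = 0.0141), with no overlap. Abcd3 went from 10054, 10312, 14347 and 11995 to 7946, 10522, 6756 and 8196, 0.714-fold (adjusted p = 0.0287), with knockout library 2 inside the wild-type range. Acadl, the long-chain dehydrogenase (ENSMUSG00000026003, chromosome 1, 66830839 to 66863277, minus strand), went from 3202, 3007, 3496 and 3482 to 3047, 2817, 2160.1 and 1993, 0.749-fold (adjusted p = 0.0342), with knockout libraries 3 and 4 lowest. Hadha (ENSMUSG00000025745, chromosome 5, 30118304 to 30155162, minus strand) went from 5588, 6097, 6211 and 6365 to 4735, 5226, 5073 and 4633, 0.811-fold (adjusted p = 0.0430), with no overlap, and Eci2, which shifts double bonds in both organelles, from 2640.5, 3340.2, 2618 and 3235 to 2639.8, 2218, 2279 and 1568, 0.728-fold (adjusted p = 0.0476), with overlap.

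DESeq2 called 7 members, these 5 and Acad11 and Scp2, both lower, where it called 1924 of the 13256 genes, and edgeR called Abcd3 and Decr2. These 5 calls depended on single libraries. Without wild-type control library 4 none of them was left, including Decr2, at an adjusted p of 0.0575. The call of Abcd3 ended on leaving out any 1 of wild-type control libraries 3 and 4 and knockout control libraries 1, 3 and 4 (adjusted p from 0.0576 to 0.0918), that of Acadl on leaving out any 1 of wild-type control libraries 1, 3 and 4 and knockout control libraries 3 and 4 (adjusted p from 0.0635 to 0.105), that of Hadha on leaving out any 1 of wild-type control libraries 1, 2, 3 and 4, wild-type ethanol library 2 and knockout control libraries 1, 2, 3 and 4 (adjusted p from 0.0501 to 0.118), and that of Eci2 without any 1 of 12 libraries (adjusted p from 0.0503 to 0.141). Beside them, 2 of 8 hepatocyte markers were lower and 7 of 10 macrophage markers higher in the knockout. The macrophage sum was 3016 to 6793 in wild type and 7175 to 11427 in the knockout. Of 6 stellate markers 1 was higher and 1 lower, and of 5 bile duct cell markers 1 was higher. The part of these markers was not tested. Acot4, at 1423 ± 367 and 858 ± 392 (SD, n = 4), had the largest estimate on control diet, 0.571-fold, and was not called (adjusted p = 0.0922).

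On ethanol, 1 of 41 members (2.44%) differed between the genotypes, where 9.88% of all genes were called, 6.13% higher and 3.75% lower. At an unadjusted p under 0.05 stood 5 members, against 24.5% of all genes, and the groups did not overlap for 2 higher and 2 lower members, against 8.36% and 7.38%. The member called was Ehhadh, at 2946, 3005, 2923 and 3157 normalised reads in wild type and 5304, 5139.9, 4225 and 4231 in the knockout. All knockout libraries were above all wild-type libraries, and the knockout level was 1.56-fold that of wild type (1.29 to 1.89, limma adjusted p = 0.00392). No single library left out ended that call, and it held without knockout ethanol libraries 1 and 4 (log2 0.63, adjusted p = 0.0436), but not with only ethanol libraries 3 and 4 of each genotype (adjusted p = 0.232). Acaa1b was at 4296, 3373, 3637 and 2939 in wild type and 7321, 4836, 4400.5 and 3679 in the knockout, with overlap. It was not called without a block (log2 0.47, limma adjusted p = 0.348). A block by replicate number in the ethanol groups alone, chosen after seeing the data, called it higher in the knockout (limma adjusted p = 0.0375). The block over all groups did not call it. DESeq2 also called Pex11a higher in the knockout, where it called 1704 of the 13256 genes. Scp2 was at 1.26-fold (adjusted p = 0.157). All 10 macrophage markers were higher in the knockout here, with a sum of 6101 to 7859 against 1134 to 1669. Of 8 hepatocyte markers 1 was lower, of 6 stellate markers 2 were higher and 1 lower, and of 5 blood markers 1 was higher. The part of these markers was not tested.

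Mitochondrial and peroxisomal members were compared by their mean log2 value per library, each gene set against its mean in wild-type controls; this is a description and has no test. On ethanol the peroxisomal mean log2 fold change between genotypes was 0.14 and the mitochondrial mean -0.05, a difference of 0.19, which was 0.15 without knockout ethanol libraries 1 and 4. The same difference was 0.06 for the genotype on control diet, 0.01 for ethanol in wild type, 0.15 for ethanol in the knockout and 0.13 for the difference of the ethanol effects, beside an SD between libraries of a group of 0.0742. The peroxisomal minus mitochondrial value per library ran from -0.109 to 0.103 in wild type on control diet, -0.0363 to 0.0839 in wild type after ethanol, -0.0111 to 0.129 in the knockout on control diet and 0.117 to 0.266 in the knockout after ethanol. The knockout ethanol libraries thus did not overlap either wild-type group and overlapped the knockout controls. In 3 of the 4 groups libraries 1 and 2 stood above libraries 3 and 4 for the mitochondrial mean: at -0.137 and -0.149 against -0.231 and -0.240 in wild type after ethanol, -0.0470 and -0.0675 against -0.279 and -0.346 in the knockout on control diet, and -0.0464 and -0.138 against -0.377 and -0.385 in the knockout after ethanol. In wild type on control diet the order was the opposite, at -0.0411 and -0.141 against 0.0701 and 0.112. The labels do not say what a library number marks.

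**Figure D5:**
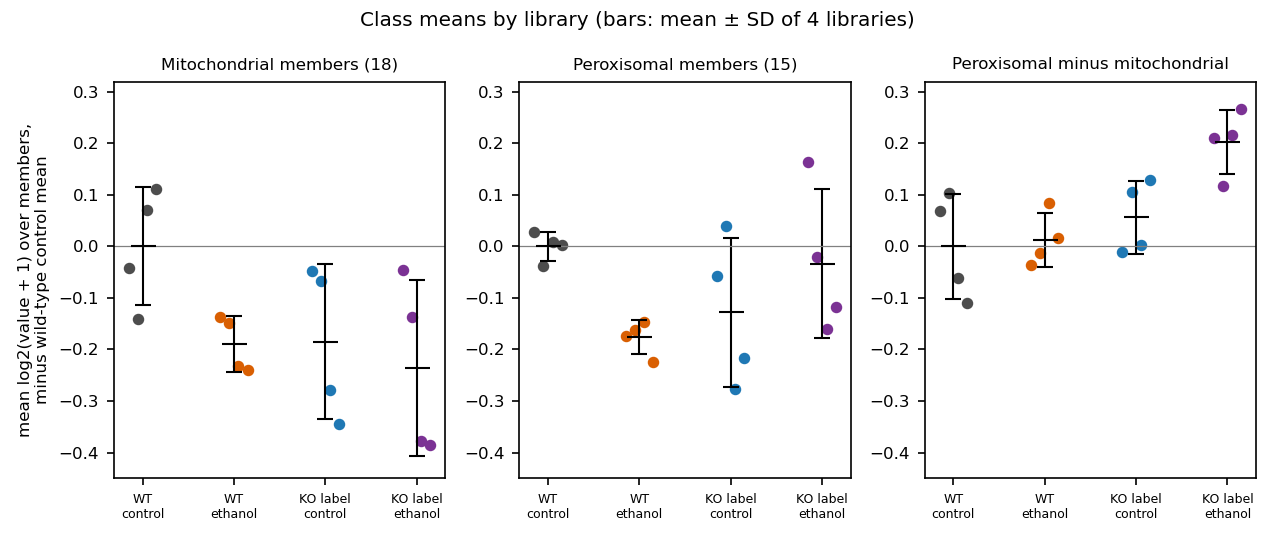
Mean log2 difference from wild-type controls over the 18 mitochondrial and the 15 peroxisomal members, and the peroxisomal minus mitochondrial difference, for each library by group (points, in library order), with bars for the mean ± SD of 4 libraries. For the mitochondrial mean, libraries 1 and 2 stand above libraries 3 and 4 in wild type after ethanol and in both knockout groups, and below them in wild type on control diet.

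Summed over the 41 members, normalised reads made up 1.39 to 1.49% of the total in wild type on control diet, 0.965 to 1.20% after ethanol in wild type, 1.24 to 1.49% in the knockout on control diet and 1.27 to 1.43% in the knockout after ethanol. The wild-type ethanol libraries did not overlap any other group. Without Scp2, the member with the highest level, the shares were 1.10 to 1.21%, 0.824 to 1.01%, 0.968 to 1.25% and 1.06 to 1.17%, and the wild-type ethanol range then overlapped the knockout controls. By group mean, 24 of the 41 members, 12 of them mitochondrial, were highest in wild type on control diet, while 16 were lowest in the knockout on control diet and 13 in wild type after ethanol. Pex19 varied least between groups, its highest group mean being 1.05 times its lowest.

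Other genes of these pathways were taken from a list of 71, of which 69 passed the minimum. With ethanol in wild type 32 of the 69 (46.4%, against 38.0% of all genes) were called, 11 higher and 21 lower, and in the knockout 24 (34.8%, against 19.2%), 11 higher and 13 lower. Nudt7, a peroxisomal CoA diphosphatase, fell from 9636 ± 835 to 1647 ± 238 normalised reads in wild type, 0.170-fold, and from 7509 ± 847 to 2107 ± 412 in the knockout, 0.278-fold (SD, n = 4; limma adjusted p = 6.48e-09 and 1.47e-06). Acot2, a mitochondrial thioesterase, rose 6.11-fold and 7.05-fold. Acnat2, a peroxisomal acyltransferase, rose 7.20-fold in wild type, and Acss3, a mitochondrial short-chain synthetase, 4.20-fold in the knockout. These changes were larger on the log2 scale than that of any member, and those in the knockout were also called without knockout ethanol libraries 1 and 4. Acnat2 in the knockout was at 145 to 305 normalised reads on control diet and 1022 to 1639 after ethanol. Acss3 in wild type was at 105 to 189 on control diet and 240 to 388 after ethanol. Both genes were thus higher after ethanol, without overlap, in the other genotype as well.

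Between the genotypes, 14 of the 69 (20.3%, against 11.6% of all genes) were called on control diet, 4 higher and 10 lower, and 6 (8.70%, against 9.88%) on ethanol, 3 each way. On control diet the thioesterase Acot12 was 0.709-fold and Acot9 1.94-fold (limma adjusted p = 0.000644 and 0.00146). On ethanol Acot9 was 2.29-fold, Acad9, a mitochondrial dehydrogenase that also assembles complex I, 1.39-fold, and Pxmp2, a peroxisomal membrane channel, 0.740-fold (adjusted p = 0.000142, 0.00696 and 0.0177). With only ethanol libraries 3 and 4 of each genotype, Acad9 (adjusted p = 0.275) and Pxmp2 (adjusted p = 0.265) were no longer called. Pxmp2 lost its call without knockout ethanol library 3 (adjusted p = 0.0567) and without knockout ethanol libraries 1 and 4 (adjusted p = 0.110).

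Ppara, the receptor named above, was lower in the knockout on control diet. It was read at 1487, 1802, 1600.5 and 1477 in wild type and 499, 773, 755 and 1045 in the knockout, 0.469-fold (limma adjusted p = 0.00431). After ethanol it was at 369, 536, 845 and 539.8 in wild type and 916, 853, 662 and 656 in the knockout. The ethanol groups thus lay below the wild-type controls, and it was the 1 gene of the 69 called for the difference of the ethanol effects, at log2 1.57 ± 0.31 (adjusted p = 0.0417). Leaving out any 1 of 14 of the 16 libraries ended that call, at adjusted p from 0.0589 to 0.116, as did leaving out knockout ethanol libraries 1 and 4 (adjusted p = 0.248).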

How the data were processed

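RNA was sequenced from 16 liver samples as single reads, per the labels' protocols. The deposited table gives a signal for each gene, in units of read counts after the authors divided each library by a size factor of its own (0.814 to 1.26), and whole reads were recovered for 100% of values within 0.01 of a read in each library. The submitters' processing notes name the build GRCm38 and the tools HISAT2 2.1.0.13, HTSeq and edgeR; the annotation release and strand setting are not given here. Of 27288 identifiers, 27233 were matched to a symbol.

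The 5 contrasts were tested in 1 fit on log2(value + 1) with limma 3.58.1 (R 4.3.3), keeping genes whose mean value was 10 or more, with a mean-variance trend and Benjamini-Hochberg adjustment over the 13256 genes; calls have an adjusted p under 0.05. Every adjusted p is from limma unless another tool is named, and the fold scale understates changes of low genes. Alternatives were pseudocounts of 0.25 and 4, other filters, no trend, only the groups compared, a replicate block, TMM scaling, edgeR 4.0.16 and DESeq2 1.42.0 on the recovered reads, and libraries left out; a block in the ethanol groups alone was chosen after seeing the data. The limma functions were tested on simulated data.

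All 41 members are named, with Dnm1l and, per contrast, the 3 called genes with the smallest p of 71 other oxidation and peroxisome genes; 2 genes sharing sequence with members were named after their values were seen. The members and lists were chosen with earlier results of these data known. Replicates differed by more than sampling noise in every pair (mean chi-square of 9.95 to 108 for a gene). In wild type after ethanol it was 13.4 between libraries 1 and 2, 34.3 between 3 and 4, and 63.0 to 108 across these pairs. In the knockout after ethanol it was 20.0, 10.4 and 27.5 to 32.0. The control groups did not divide in this way, and what sets the libraries apart was not tested. Same-numbered libraries deviated together from their group means between the ethanol groups only (correlations across genes from 0.102 to 0.246, 4 pairs). The block in the ethanol groups rests on these correlations alone. Wild-type library 1 correlated at 0.115 with its own number and 0.176 with another, and library 4 at 0.102 and 0.199. Pairing by number is therefore not established. A search for the peroxisomal targeting signal in the proteins was not run here.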

Additional observations from a re-analysis of the deposited data

Results flagged for a closer look

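In 11 of 168 sets of 4 libraries (41 members and the peroxisomal minus mitochondrial difference in 4 groups), 1 library stood apart from the other 3 by a gap above Dixon's 95% critical value; chance gives this in about 1 in 20 sets, here 8.4. In wild-type controls, library 2 was low for Acadm (3781 normalised reads), Acox2 (1699.9), Etfb (711) and Hsd17b4 (5683). In the same group Acsl5 was high in library 3 (8592) and Pex5 low in library 4 (1685). In wild type after ethanol Acsl5 was high in library 4 (5376). In knockout controls Acsl1 was high in library 2 (13667) and Cpt2 low in library 4 (1544). In the knockout after ethanol Acox2 was high in library 2 (4391) and Eci1 high in library 1 (1576).

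Ppara was listed because its ethanol effect differed between the genotypes by the test of the difference itself, at log2 1.57 (limma adjusted p = 0.0417). Its estimates of ethanol over control were 0.346-fold in wild type and 1.03-fold in the knockout.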

How the results depend on the processing

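Of 5945 results of single members under 30 alternatives, none that was called in the main fit or in the alternative reversed direction. Directions of results called in neither were not compared. Of 27 calls, 8 held under every alternative run. For the genotype on control diet the 5 members called became 1 with no filter, 1 with only the groups compared, 2 with no trend, 2 with edgeR, and 0 to 6 with 1 library left out (0 without wild-type control library 4). For the genotype on ethanol the 1 member called became 2 with DESeq2, 2 with the replicate block in the ethanol groups and 0 with only ethanol libraries 3 and 4, and 1 to 2 with 1 library left out. For ethanol in the knockout the 8 members called became 1 without knockout ethanol libraries 1 and 4, 4 with only ethanol libraries 3 and 4, and 5 to 9 with 1 library left out (5 without knockout ethanol library 2). For the difference of the ethanol effects the 0 called became 2 with DESeq2 and 1 with only ethanol libraries 1 and 2. The causes were not tested; leaving libraries out also leaves fewer samples. For ethanol in wild type the 13 called stayed within 1.5 times under each alternative. The replicate number as a block over all groups gave 4, 1, 14, 9 and 0 members called for the 5 comparisons in the order genotype on control diet, genotype on ethanol, ethanol in wild type, ethanol in the knockout and difference. TMM scaling moved the median of all genes by less than 0.1 in log2. Peroxisomal minus mitochondrial differences moved by less than the SD between libraries throughout. Shared sequence limits Etfb, Acaa1b, Scp2, Pex14, Acadvl and Hadhb, and 4 libraries per group limit each test.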
